A study of Homo sapiens with 6 samples.

Results

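The chaperonins described here are the 10 genes of the cytosolic chaperonin TRiC (TCP1, CCT2, CCT3, CCT4, CCT5, CCT6A, CCT7 and CCT8) and of the mitochondrial pair HSP60 and HSP10 (HSPD1 and HSPE1). They were taken by gene symbol from a table of 16315 genes, and all 10 were found and passed the filter on low values. Messenger RNA was sequenced in the human erythroleukaemia cell line F36P, which needs a growth factor to proliferate, and levels are given as CPM, read counts relative to the library's total, after TMM scaling, which adjusts those totals for composition. The tested cells carried a CRISPR guide against the class IIa histone deacetylase HDAC7 (sgHDAC7, genotype label HDAC7 knockout, 3 libraries). The control cells carried a non-targeting guide (sgNT, genotype label WT, 3 libraries). Both groups were transduced with a guide plasmid that carries puromycin resistance, and both were selected in puromycin (1 µg/ml) over 4 days before sequencing. The labels call the libraries biological replicates without saying whether they came from separate cultures, so p-values measure the spread between these libraries, which may in part be technical. They do not say whether the cells were a pool or a clone.

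Chaperonins are barrel-shaped, ATP-driven machines that enclose an unfolded protein and release it folded. TRiC, also called CCT, is a double ring built of paralogous subunits, each present once per ring, and is needed to fold actin, tubulin and many proteins with WD40 repeats. HSP60 forms rings in the mitochondrial matrix that are capped by a ring of HSP10, and the genes of the pair stand head to head on chromosome 2. Proliferating red cell precursors, like other fast-growing cells, make large amounts of cytoskeletal and mitochondrial proteins that pass through these machines.

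HSPD1 (2:197486581-197516737, minus strand, GRCh38) and HSPE1 (2:197499994-197503457, plus strand) are transcribed in opposite directions. In GENCODE 29 the whole span of HSPD1 encloses HSPE1, because that span reaches further upstream. The RefSeq starts used here, at 197499840 for HSPD1 and at 197500379 for HSPE1, face away from each other across 539 bases. The sequences upstream of both starts are shown because they lie in the region between these starts. Each is given 5′ to 3′ on the strand of its own gene, from RefSeq on GRCh38.p14, as the 250 bases before the start. Capitals mark a run of 4 alternating heat shock units (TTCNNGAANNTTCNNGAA) upstream of HSPD1 and an E-box (CACGTG) upstream of HSPE1.
HSPD1, chr2:197499841-197500090, minus strand: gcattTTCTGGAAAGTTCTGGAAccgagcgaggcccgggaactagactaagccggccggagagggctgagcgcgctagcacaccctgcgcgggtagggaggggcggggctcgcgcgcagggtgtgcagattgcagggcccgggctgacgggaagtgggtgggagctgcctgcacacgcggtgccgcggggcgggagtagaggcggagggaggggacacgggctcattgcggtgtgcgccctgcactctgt
HSPE1, chr2:197500129-197500378, plus strand: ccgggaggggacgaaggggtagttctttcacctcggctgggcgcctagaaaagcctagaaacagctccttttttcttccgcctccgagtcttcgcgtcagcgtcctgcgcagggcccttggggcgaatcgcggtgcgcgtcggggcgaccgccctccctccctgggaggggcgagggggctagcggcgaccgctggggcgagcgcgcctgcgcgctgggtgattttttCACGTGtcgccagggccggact

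The run of 4 units lay 228 to 245 bases before the HSPD1 start and 294 bases from the HSPE1 start, which places it outside the HSPE1 window. It was found on either strand in 0.0259% of 34796 promoter windows of 300 bases (250 before and 50 after a start). Its shorter form of 3 units (GAANNTTCNNGAA), which matches 2 overlapping stretches of the longer run, 1 on each strand, was found in 0.491% of the windows. Among the 9 members with a RefSeq window, HSPD1 alone held the 3-unit form. CCT6A was not matched to a window and was not analysed here. In the list of heat shock factors and cytosolic chaperones, 5 of the 16 genes with a window held it, namely CHORDC1, DNAJA1, HSP90AA1, HSP90AB1 and HSPA8. The E-box was in 7.20% of all windows, and 1 site of it fell both in the HSPE1 window and in that of a second, upstream HSPD1 start. A CCAAT box (CCAAT) was in 34.6% of all windows and in those of TCP1, CCT2, CCT3 and CCT8. These are matches of letters and say nothing of binding.

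The deposited counts summed to between 10039693 (sgNT replicate 1) and 12521195 (sgHDAC7 replicate 3) per library, at which 3 counts are worth 0.240 to 0.299 CPM (counting error only). In each group the first replicate differed most from the rest. The chi-square per degree of freedom was 7.91 to 15.6 for pairs that include replicate 1, against 3.24 in sgHDAC7 and 3.53 in sgNT for replicates 2 and 3. HDAC7 stood at 194.2, 238.7 and 246 CPM in sgHDAC7, against 449.9, 460.4 and 461.8 CPM in sgNT, a log2 fold change of -1.02 ± 0.09 (SE, edgeR adjusted p = 0.00139). All 11 erythroid and progenitor markers looked for were above the filter, among them the erythroid factor GATA1, with 231 ± 5.88 CPM (sgHDAC7) and 226 ± 25.0 CPM (sgNT; SD, n = 3 each). Their summed level was 14530 to 19490 CPM in sgHDAC7 and 10440 to 14790 CPM in sgNT, and its part in the results below was not tested. The fetal globin gene HBG2 made up most of that sum, at 9070, 11000 and 13000 CPM in sgHDAC7, against 5658, 9237 and 8852 CPM in sgNT, and did not pass (edgeR adjusted p = 0.188). The progenitor marker CD34 was highest in replicate 1 of both groups, at 30.2, 13.21 and 12.55 CPM in sgHDAC7, against 56.82, 15.28 and 16.06 CPM in sgNT. KIT, the stem cell factor receptor, was low, at 2.094, 2.158 and 1.7 CPM in sgHDAC7, against 2.767, 4.854 and 3.8 CPM in sgNT. This was 0.521-fold its sgNT level without overlap, and it did not pass (edgeR adjusted p = 0.113). The groups did not overlap in 25.1% of all tested genes. With a term for replicate 1 in the fit, 3 of the 11 markers were higher and 2 lower, against 12.6% of all genes in either direction. HBG2 was among the higher (edgeR adjusted p = 0.000993) and CD34 among the lower (edgeR adjusted p = 0.0192) in that fit. One marker passed with group alone, where 2.86% of all genes did in either direction. It was the cytokine receptor chain CSF2RA, which was lower in sgHDAC7 (18.0 ± 2.42 CPM) than in sgNT (33.6 ± 8.37 CPM). Its edgeR adjusted p was 0.0399, and up to 0.184 with 1 library left out. Of 9 markers of other blood cells, LYZ alone passed the filter. Its level was 86.4 ± 8.90 CPM (sgHDAC7) against 96.0 ± 13.8 CPM (sgNT).

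None of the 10 chaperonin genes passed the test between sgHDAC7 and sgNT. Over all genes, 396 of 13841 (2.86%) passed, 161 (1.16%) higher and 235 (1.70%) lower (edgeR quasi-likelihood test, Benjamini-Hochberg adjusted p under 0.05). By DESeq2 and limma none of the 10 passed either, where 5.19% and 2.60% of all genes did. Without adjustment the members under 0.05 numbered 0 by edgeR (19.2% of all genes), 0 by DESeq2 and 1 by limma, which was CCT6A. The groups overlapped in all 10 genes, whereas they did not overlap in 25.1% of all tested genes. The median log2 fold change was 0.04 over the 10 genes and -0.002 over all tested genes. The 95% intervals of the 8 TRiC subunits ran from -0.15 to 0.35 on the log2 scale, so a difference above 1.27-fold lay outside every one of them. In bulk RNA, a change in the number of cells with a given level and a change in RNA per cell cannot be told apart.

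**Figure D1:**
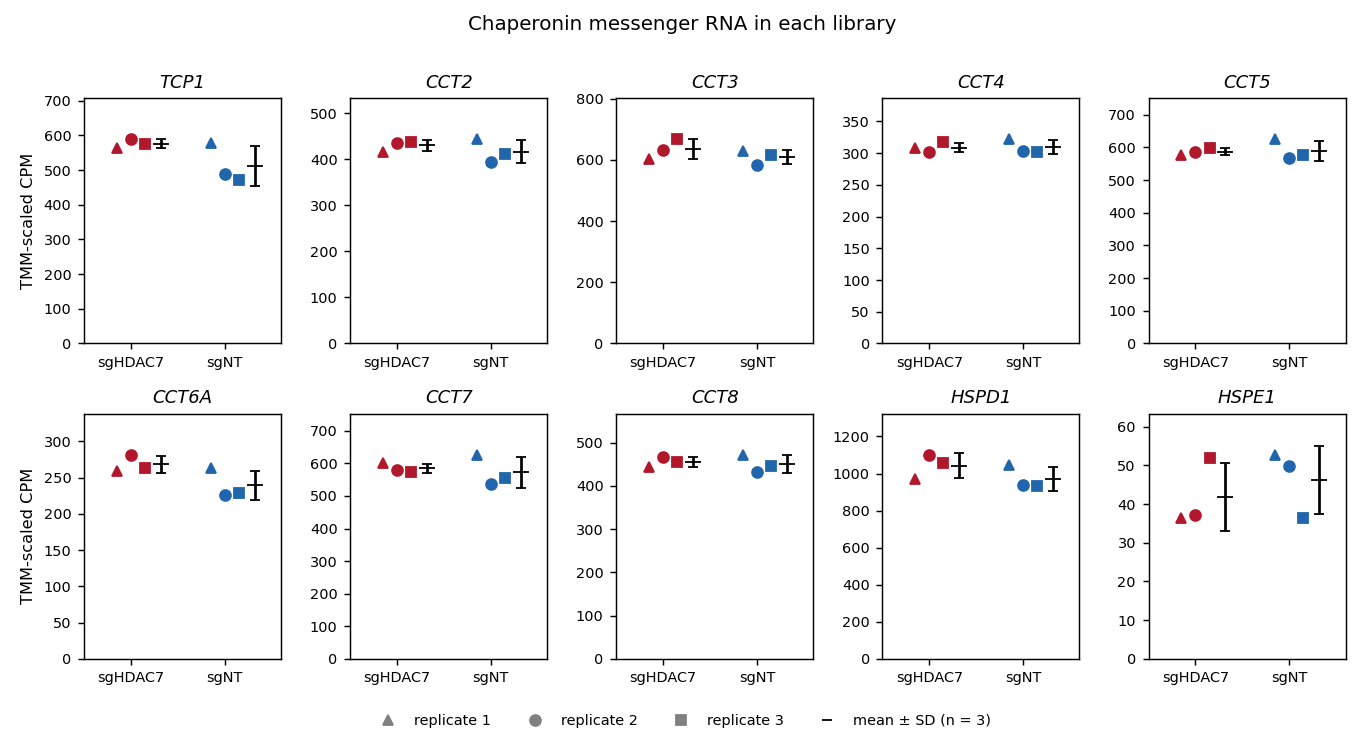
Each panel plots 1 chaperonin gene, with TMM-scaled CPM on the y axis from 0 and the groups on the x axis. Points are libraries, shaped by replicate, and bars are mean ± SD (n = 3). The groups overlap in every panel, and sgNT replicate 1 (triangle) is the highest sgNT library in all 10.

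TCP1 and CCT6A had the highest log2 fold changes of the TRiC subunits. TCP1 (6:159778498-159789749, minus strand), the alpha subunit after which the complex was first named, stood at 563.6, 589 and 575.4 CPM in sgHDAC7, against 577.6, 487.8 and 472.2 CPM in sgNT. The sgHDAC7 libraries lay close together and above sgNT replicates 2 and 3, while sgNT replicate 1 fell within their range. The log2 fold change was 0.17 ± 0.08 (SE, edgeR adjusted p = 0.297). Its exons share 397 bases with ACAT2 on the opposite strand, and whether the counting used strand is not given in the sources used here. ACAT2, an enzyme of acetyl-CoA metabolism, had a log2 fold change of -0.25 ± 0.12, so its sign was opposite to that of TCP1.

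CCT6A (7:56051630-56063989, plus strand), which encodes the zeta subunit, stood at 259.9, 281.9 and 263.2 CPM in sgHDAC7, against 263.1, 226.8 and 228.5 CPM in sgNT. As for TCP1, sgNT replicate 1 was within the sgHDAC7 range and the other sgNT libraries were below it. The log2 fold change was 0.16 ± 0.08 (edgeR adjusted p = 0.274). Its paralogue CCT6B, known as a testis form of the same subunit, was below the filter on low values. Without sgNT replicate 1 both genes passed, TCP1 at log2 0.26 (edgeR adjusted p = 0.0127) and CCT6A at 0.24 (edgeR adjusted p = 0.0299). Over all genes 1595 of 13830 passed in that fit. Omitting any of the other 5 libraries left neither gene past the threshold.

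The other 6 subunits had log2 fold changes between -0.01 and 0.06, with edgeR adjusted p from 0.665 to 0.991. CCT2 (12:69585334-69601570, plus strand), the beta subunit, had 430 ± 11.9 CPM (sgHDAC7) against 416 ± 24.8 CPM (sgNT; SD, n = 3 each). CCT3 (1:156308968-156367873, minus strand), the gamma subunit, had 635 ± 31.6 and CCT8 (21:29055805-29073797, minus strand), the theta subunit, 455 ± 11.6 CPM in sgHDAC7. In sgNT these 2 stood at 610 ± 23.0 CPM for CCT3 and 450.4 ± 20.4 CPM for CCT8. In these 3 genes the means differed by less than the larger SD.

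CCT4 and CCT5 were the closest between the groups. CCT4 (2:61868089-61888804, minus strand), the delta subunit, had 307.8, 301.4 and 316.8 CPM in sgHDAC7, against 321.6, 303.4 and 302.2 CPM in sgNT. The log2 fold change was -0.002 with a 95% interval from -0.14 to 0.13. CCT5 (5:10249921-10266412, plus strand), the epsilon subunit, had 575.4, 586.6 and 598.7 CPM in sgHDAC7, against 624.5, 568.8 and 575 CPM in sgNT, with an interval from -0.15 to 0.13. All sgHDAC7 libraries of CCT5 lay within the sgNT range, and of those of CCT4 replicate 2 alone lay just below it. CCT7 (2:73233420-73253021, plus strand), the eta subunit, had 585 ± 14.4 CPM (sgHDAC7) against 573 ± 47.8 CPM (sgNT).

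**Figure D2:**
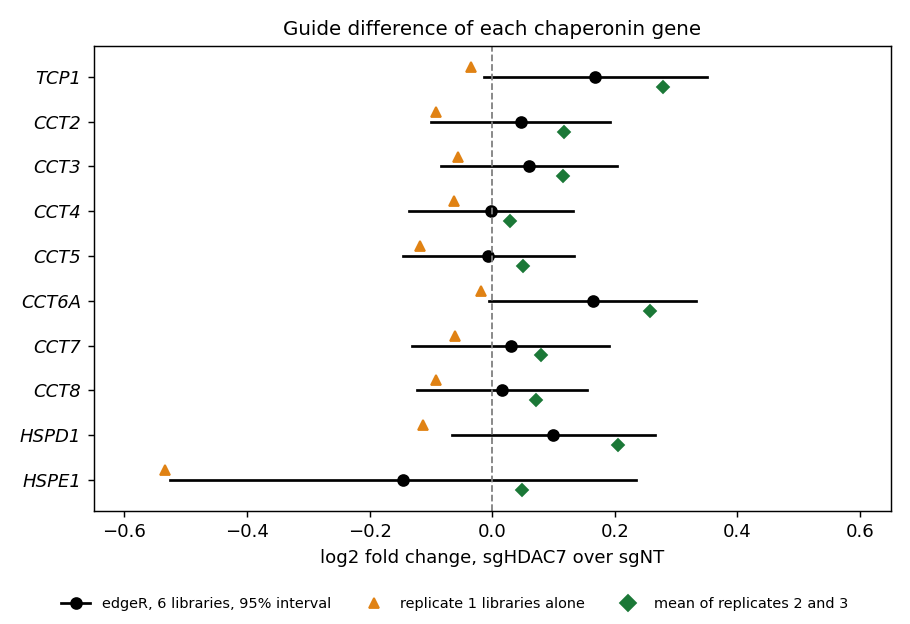
The x axis is the log2 fold change of sgHDAC7 over sgNT for each chaperonin gene on the y axis, where circles with lines are the edgeR estimate and its 95% interval. Triangles are the ratio of the replicate 1 libraries alone and diamonds that of the mean of replicates 2 and 3. Every interval includes 0, every triangle is below 0 and every diamond above it.

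The sign of the difference changed with the replicate. Between the replicate 1 libraries all 10 genes were lower in sgHDAC7, with log2 ratios from -0.02 (CCT6A) to -0.53 (HSPE1). Between the means of replicates 2 and 3 all 10 were higher, with log2 ratios from 0.03 (CCT4) to 0.28 (TCP1). The medians over the 10 genes were -0.08 and 0.10, against -0.005 and 0.004 over all tested genes. Among the sgNT libraries, replicate 1 was the highest in all 10 genes. In sgHDAC7, replicate 1 was the lowest in 8 of the 10.

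This change of sign is given as a description, as replicate 1 has 1 library per group. A fit of the guide difference in replicate 1 minus that in replicates 2 and 3 was added after the data were seen. It ran from log2 -0.09 ± 0.09 (CCT4) to -0.59 ± 0.22 (HSPE1; SE) over the 10 genes. TCP1 was at -0.31 ± 0.09 and HSPD1 at -0.32 ± 0.09. In the check of pairing the replicate 1 libraries of both groups went together, while replicates 2 and 3 were not matched by number. On replicates 2 and 3 alone, 3 members passed, against 20.7% of all genes in that fit. They were TCP1 (log2 0.28, edgeR adjusted p = 0.000258), CCT6A (log2 0.26, edgeR adjusted p = 0.00093) and HSPD1 (log2 0.21, edgeR adjusted p = 0.00495). With a term for replicate 1 and all 6 libraries none of the 10 passed, against 12.6% of all genes, and the lowest edgeR adjusted p was 0.105 (TCP1).

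The 8 subunits of TRiC were also compared as shares of their summed counts, which do not depend on how libraries are scaled. TRiC counts summed to 3771, 3873 and 3890 CPM in sgHDAC7, against 3957, 3534 and 3606 CPM in sgNT, and the groups overlapped. TCP1 made up 14.94%, 15.21% and 14.79% of TRiC counts in sgHDAC7, against 14.60%, 13.80% and 13.09% in sgNT. CCT6A made up 6.89%, 7.28% and 6.77% in sgHDAC7, against 6.65%, 6.42% and 6.34% in sgNT. The shares of both were higher in every sgHDAC7 library than in any sgNT library. CCT5 lay the other way, at 15.26%, 15.15% and 15.39% in sgHDAC7, against 15.78%, 16.10% and 15.94% in sgNT. The other 5 subunits overlapped between the groups. The 3 of 8 subunits without overlap stand beside the 25.1% of all genes whose CPM did not overlap, and no more is read from them. Since shares add up to a fixed total, a higher share of one subunit lowers the others, and no test was made of these shares.

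**Figure D3:**
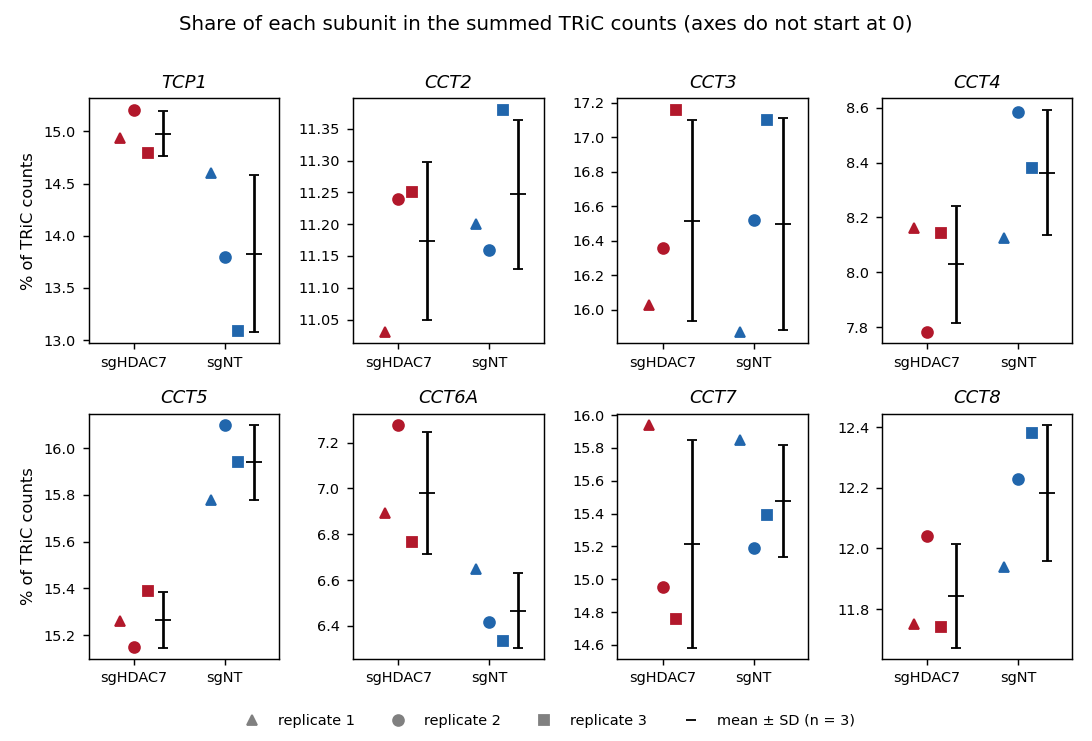
The y axis of each panel is the percentage of the summed TRiC counts that came from 1 subunit, on an axis that does not start at 0, and the groups are on the x axis. Points are libraries and bars mean ± SD (n = 3). TCP1 and CCT6A lie higher, and CCT5 lower, in all 3 sgHDAC7 libraries than in all 3 sgNT libraries.

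Levels of different genes were compared per kilobase of the principal GENCODE 29 transcript. CCT7 was the most abundant subunit, at 305 ± 7.49 CPM per kb in sgHDAC7 and 299 ± 24.9 in sgNT (SD, n = 3 each), with CCT3 next at 295 ± 14.7 in sgHDAC7 and 284 ± 10.7 in sgNT. These neighbours did not differ beyond their spread. CCT8, TCP1 and CCT2 followed at 227 ± 5.79, 230.5 ± 5.09 and 210.5 ± 5.85 CPM per kb in sgHDAC7, and at 225 ± 10.2, 205 ± 22.8 and 204 ± 12.2 in sgNT, where they overlapped. CCT5 and CCT4 were lower, at 160 ± 3.17 and 122 ± 3.07 in sgHDAC7 and at 160 ± 8.30 and 123 ± 4.31 in sgNT. CCT6A was lowest, at 98.7 ± 4.36 in sgHDAC7 and 88.1 ± 7.53 in sgNT. CCT7, CCT3 and CCT6A kept their places when the length of all annotated exons was used instead, while CCT2 moved below CCT4 and CCT5. The order therefore rests in part on the transcript chosen, and the annotation the authors counted on is not given in the sources used here.

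**Figure D4:**
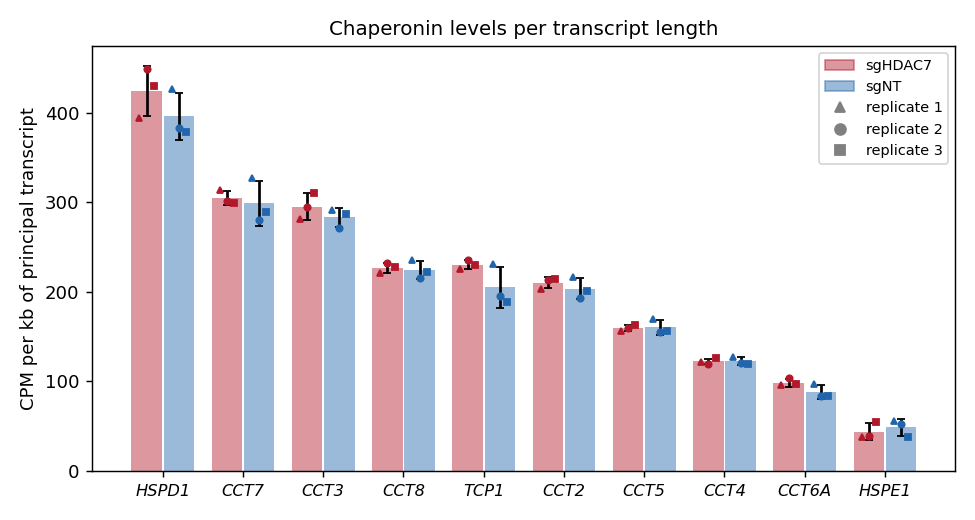
The y axis is CPM per kilobase of principal transcript, starting at 0, for each chaperonin gene on the x axis. Bars are means of 3 libraries with SD, points are single libraries shaped by replicate, and sgHDAC7 stands left of sgNT. HSPD1 is the highest and HSPE1 the lowest, with the 8 TRiC subunits between them.

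HSPD1, the mitochondrial HSP60, was the most abundant member per length. It stood at 968.5, 1102 and 1056 CPM in sgHDAC7, against 1047, 940.5 and 929.9 CPM in sgNT. The sgHDAC7 replicates 2 and 3 were above every sgNT library and sgHDAC7 replicate 1 was below sgNT replicate 1. The log2 fold change was 0.10 ± 0.07 with a 95% interval from -0.07 to 0.27 (edgeR adjusted p = 0.502). The ratio of HSPD1 to the summed TRiC counts was 25.7%, 28.5% and 27.2% in sgHDAC7, against 26.4%, 26.6% and 25.8% in sgNT.

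HSPE1, the HSP10 lid of the same machine, was the least abundant and least precise member. It stood at 36.3, 37.2 and 52.0 CPM in sgHDAC7, against 52.8, 49.8 and 36.3 CPM in sgNT. The sgHDAC7 libraries 1 and 2 were level with sgNT replicate 3, and sgHDAC7 replicate 3 was level with sgNT replicates 1 and 2. The log2 fold change was -0.15 ± 0.17 with a 95% interval from -0.53 to 0.23 (edgeR adjusted p = 0.693). Per kilobase HSPE1 reached 44.0 ± 9.25 CPM in sgHDAC7 and 48.7 ± 9.24 in sgNT. The level of HSPD1 per kilobase was 425 ± 27.7 CPM in sgHDAC7 and 396 ± 26.3 in sgNT.

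HSPE1 counts are uncertain, since near-identical copies and overlapping genes can take its reads. Processed pseudogenes are intronless copies of a messenger RNA, and 4 rows of the table are HSPE1 pseudogenes. They held 53.6%, 52.6% and 46.3% of the counts of HSPE1 and its pseudogenes in sgHDAC7, against 45.3%, 45% and 52.4% in sgNT. HSPE1 also shares 192 exon bases on the same strand with the read-through gene HSPE1-MOB4, which is not analysed here, and 281 with HSPD1 on the opposite strand. MOB4, the other gene of that read-through, had 18, 8 and 16 counts in sgHDAC7, against 15, 10 and 14 in sgNT. How the authors' counting treated reads shared by such genes was not tested.

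The pseudogenes of the other members took a smaller part of the counts. For HSPD1 the 3 pseudogene rows HSPD1P1, HSPD1P4 and HSPD1P6 held 18.1% to 19.2% of the joint counts in sgHDAC7 and 18.2% to 19.8% in sgNT. HSPD1P1, a processed pseudogene, had 132 ± 4.76 CPM (sgHDAC7) against 125.5 ± 17.4 CPM (sgNT). For CCT6A the 2 pseudogene rows held 2.80% to 3.79% in sgHDAC7 and 2.63% to 4.04% in sgNT, and for TCP1 and CCT5 less than that. When pseudogene counts were added to their parent gene, a fit added after the data were seen, no member passed and HSPE1 moved to log2 -0.06 ± 0.11 (edgeR adjusted p = 0.816).

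None of the tested prefoldin and phosducin-like genes, cofactors of TRiC, passed the test. Prefoldin captures nascent actin and tubulin for TRiC, and phosducin-like proteins such as PDCL and PDCL3 act beside it. Of 10 such genes 9 were tested and none passed, with a median log2 fold change of -0.04 and values from -0.13 (VBP1, a prefoldin subunit) to 0.12 (PFDN1, another). At an unadjusted p under 0.05 none of the 9 passed by edgeR, and with the replicate 1 term none did. Of the chaperonin-like genes, 3 of 5 were tested (MKKS, BBS10 and BBS12, which assemble the BBSome) and none passed. BBS10 alone was under 0.05 without adjustment, as were 19.2% of all genes (edgeR adjusted p = 0.258). Every sgHDAC7 library of BBS10 was below every sgNT library, where the groups did not overlap in 25.1% of all tested genes.

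Among the proteins folded by TRiC, 2 tubulin genes rose. Of 17 actin and tubulin genes 2 were higher and none lower (median log2 0.20), where 1.16% of all genes were higher and 1.70% lower. TUBB4B, a widely expressed beta tubulin, stood at 572.5, 531.8 and 551.6 CPM in sgHDAC7, against 451.8, 411.1 and 409.6 CPM in sgNT (edgeR log2 fold change 0.38 ± 0.07, adjusted p = 0.0225). TUBB1, the beta tubulin of platelets, had 25.4 ± 2.88 CPM (sgHDAC7) against 15.5 ± 1.81 CPM (sgNT), a 1.63-fold difference (edgeR adjusted p = 0.0306). ACTB, beta actin, had 5388 ± 473 CPM (sgHDAC7) against 4659 ± 483 CPM (sgNT) and did not pass.

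Of 13 other TRiC clients, CDC20 alone passed, where 2.86% of all genes did in either direction. It encodes an activator of the anaphase-promoting complex with WD40 repeats, and stood at 185.2, 188.9 and 194 CPM in sgHDAC7, against 159.1, 154.2 and 151.5 CPM in sgNT (edgeR log2 fold change 0.29 ± 0.06, adjusted p = 0.0369). Leaving out a single library kept the calls of TUBB4B, TUBB1 and CDC20 when that library was sgNT replicate 1, and lost them in the other 5 omissions (edgeR adjusted p up to 0.118, 0.168 and 0.169). With the replicate 1 term 6 actin and tubulin genes and 3 other clients were higher, where 12.6% of all genes passed in either direction.

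Of 9 genes of the mitochondrial HSP70 and HSP90 system none passed (median log2 0.01), and HSPA9, the matrix HSP70, had 321 ± 9.10 CPM (sgHDAC7) against 332 ± 11.9 CPM (sgNT). With the replicate 1 term 1 of the 9, GRPEL2, was lower (edgeR adjusted p = 0.0364), where 12.6% of all genes passed in either direction. GRPEL2 also passed with DESeq2 (log2 -0.67, adjusted p = 0.0363), and its groups overlapped. Of 11 mitochondrial proteases LONP1, the matrix protease that degrades misfolded and oxidised proteins, was the only call, where 2.86% of all genes passed. With the replicate 1 term PITRM1, a matrix peptidase that degrades presequences, passed as well and was higher (edgeR adjusted p = 0.0157). LONP1 fell to 237.9, 265 and 258.1 CPM in sgHDAC7, against 315.9, 317 and 345 CPM in sgNT (edgeR log2 fold change -0.36 ± 0.07, adjusted p = 0.029).

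The transcription factors ATF4, ATF5 and DDIT3 are linked to the mitochondrial stress response that can induce HSPD1 and HSPE1 in mammalian cells. DDIT3 (CHOP) fell to 12.96, 12 and 12.79 CPM in sgHDAC7, against 16.1, 30.0 and 28.7 CPM in sgNT (edgeR log2 fold change -0.99 ± 0.21, adjusted p = 0.0437). With limma DDIT3 did not pass (adjusted p = 0.0566). ATF5 had a log2 fold change of 0.34 ± 0.08 and ATF4 one of -0.53 ± 0.13, and neither passed (edgeR adjusted p = 0.0574 and 0.0687). Both passed with DESeq2 (adjusted p = 0.0295 for ATF5 and 0.00295 for ATF4), in the same directions. They also did so with the replicate 1 term (edgeR adjusted p = 0.00883 for ATF5 and 0.00334 for ATF4). All 3 factors thus passed in those fits, against 5.19% of all genes with DESeq2 and 12.6% with the replicate 1 term. Between the replicate 1 libraries the log2 ratio was -0.14 for ATF4, -0.30 for DDIT3 and 0.46 for ATF5. Between the means of replicates 2 and 3 it was -0.69 for ATF4, -1.21 for DDIT3 and 0.29 for ATF5. LONP1 and DDIT3 kept their calls among the single omissions only without sgNT replicate 1 (edgeR adjusted p up to 0.134 and 0.197 in the others).

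Some cytosolic heat shock genes rose. Of 18 heat shock factors and cytosolic chaperones 4 were higher and none lower (median log2 0.20). Over all genes 1.16% were higher and 1.70% lower in that fit. HSPB1, a small heat shock protein, stood at 91.2, 112.7 and 103.3 CPM in sgHDAC7, against 60.09, 64.99 and 63.94 CPM in sgNT (edgeR log2 fold change 0.70 ± 0.09, adjusted p = 0.00637). HSPA1A and HSPA1B, the stress-inducible HSP70 genes, were 2.54-fold (edgeR adjusted p = 0.028) and 2.57-fold higher (edgeR adjusted p = 0.0319), and as near-identical copies may share reads. HSP90AA1, the inducible HSP90, was 1.30-fold higher at the edge of the threshold (edgeR adjusted p = 0.04997), and with limma it did not pass (adjusted p = 0.0667). HSPA8, the constitutive HSP70, passed with limma in its place (adjusted p = 0.0496; 0.0536 by edgeR). With library totals only, 3 genes of the list passed, and without a filter on low values 5 did. With DESeq2 6 passed, where 5.19% of all genes did.

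The heat shock list also differed by replicate, with a median log2 ratio of 0.01 in replicate 1 and of 0.37 in the other replicates. HSPA1A stood at 319.4, 561.7 and 555.1 CPM in sgHDAC7, against 259.1, 153.9 and 152.3 CPM in sgNT. Replicate 1 was the lowest sgHDAC7 library and the highest sgNT library for HSPA1A, as for TCP1, CCT6A and HSPD1. HSPB1 kept its call in 4 of 6 single omissions, losing it without sgHDAC7 replicate 2 or 3 (edgeR adjusted p up to 0.061). HSPA1A, HSPA1B and HSP90AA1 kept theirs only without sgHDAC7 replicate 1 or sgNT replicate 1 (edgeR adjusted p up to 0.154, 0.168 and 0.212). With the replicate 1 term 7 of the 18 were higher, where 12.6% of all genes passed in either direction.

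**Figure D5:**
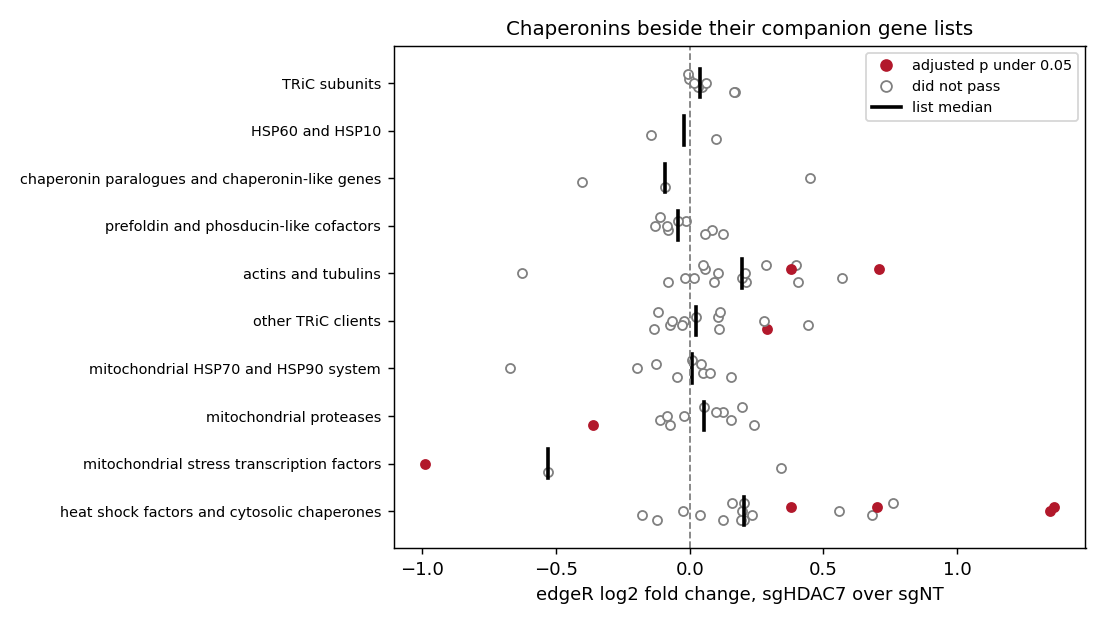
Each row is a gene list and each point a gene, with the edgeR log2 fold change of sgHDAC7 over sgNT on the x axis; filled points have an adjusted p under 0.05 and the bar is the list median. The chaperonins sit within 0.17 of 0, and filled points lie among the heat shock, tubulin, client, protease and stress factor lists.

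The genes with the most similar course over the 6 libraries were found by the root mean square distance between centred log2 CPM values, among 10902 genes of at least 5 CPM. For the mean TRiC profile they were TMEM62, AHSA1, PDCD11, SF3A3 and CCNJ, at distances of 0.0147 to 0.0164. For the mean of HSPD1 and HSPE1 they were MGST3, EBPL, RPLP1P4, POLI and SF3B6, at 0.0352 to 0.0487. The profiles themselves vary little, by a root mean square of 0.0607 and 0.140 on the log2 scale, and genes of little variation lie close to such a profile.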

How the data were processed

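Poly-A selected RNA was sequenced from 6 libraries, 3 sgHDAC7 and 3 sgNT. The authors deposited 1 table named as CPM. All of its values are whole (100%) and its columns have unequal totals, so the deposited table was analysed as raw counts. The submitters' processing notes list edgeR 3.32.1 and the build hg38 and give neither a role. The aligner, the counter, its annotation and its strand setting are not given in the sources here. Every row exceeds 0.5 CPM in at least 2 libraries. Columns named NC were taken as sgNT, the only other group.

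The test took the 13841 genes whose CPM averaged 1 or more, and was run with edgeR 4.0.16 in R 4.3.3 (TMM scaling, quasi-likelihood, group alone, two-sided, Benjamini-Hochberg threshold 0.05). CPM are TMM-scaled, with SD over 3 libraries. SEs were derived from each gene's F statistic, and the 95% intervals from the SEs. Alternatives were limma 3.58.1 on log2(CPM + 0.5), DESeq2 1.42.0, other scalings, no filter, a replicate block, a replicate 1 term and omissions. Ratios within replicates use CPM + 0.5. Scripts were tested on simulated counts. Positions and lengths come from GENCODE 29 on GRCh38, and promoters from RefSeq (9 of 10 members matched).

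Members and lists were chosen with earlier results of these data known. Genes named are the members, HDAC7, up to 4 calls of smallest adjusted p per list, 5 like-profile genes per profile, and pseudogene or read-through rows of members. ACAT2, ACTB, HSPA9, GRPEL2, VBP1, PFDN1, ATF4, ATF5 and GATA1 were named after their values were seen. The same holds for HBG2, CD34, KIT, HSPA8, PITRM1, MKKS, BBS10, BBS12 and LYZ. Replicate numbers did not pair the samples by the check used.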

Additional observations from a re-analysis of the deposited data

How the results depend on the processing

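Of 140 member values under the other settings, 123 kept their direction and side of the threshold, 12 changed sign, 5 came to pass and 0 ceased to pass. The sign changes were all of values that did not pass. CCT4 moved to log2 0.000972 without a filter on low values and 0.0301 on replicates 2 and 3 only, where CCT5 was at 0.0517 and HSPE1 at 0.0513, and CCT8 was at -0.00206 with library totals only. Leaving out 1 library gave -0.0227 to 0.0275 for CCT4, -0.0318 to 0.0372 for CCT5, -0.0156 to 0.0995 for CCT7 and -0.0138 to 0.0512 for CCT8. The members that passed numbered 3 on replicates 2 and 3 only and 0 to 2 with 1 library left out. Over all genes the calls numbered 718 with DESeq2, 1743 with the replicate 1 term, 2861 on replicates 2 and 3 only, and 28 to 1595 with 1 library left out. They were 233 without sgHDAC7 replicate 1, 28 and 31 without sgHDAC7 replicates 2 and 3, 1595 without sgNT replicate 1, and 46 and 50 without sgNT replicates 2 and 3. The cause of these shifts was not tested. With the replicate block 998 genes and 0 members passed. Deviations of same-numbered libraries correlated at 0.303, 0.107 and 0.0968. Those of the replicate 1 libraries correlated at -0.216 to -0.179 with replicates 2 and 3 of the other group. Deviations were taken from each gene's group mean, so a positive value forces values below 0 elsewhere, and these add nothing to it. Replicates 2 and 3 correlated better with each other's number than with their own, so the number was not taken as a pairing of all libraries. HSPE1, with 382 to 642 counts per library, has the widest interval of the members.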
